A study of Bos taurus with 13 samples.

Results

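*IL23A* and *STAT2* are neighbouring genes of bovine chromosome 5, and they are 2 of the 16095 named genes counted in whole blood RNA of dairy cows with high or low milk cortisol. The pair was chosen by its position and by values already known from these data, namely that both genes differed between the cortisol groups and varied together across cows. Levels, ratio, co-variation and group difference of the pair are therefore given as a description, without a test, and the tests below set either gene against scores that hold neither of them. The data hold 13 lactating cows of the Italian Red Pied breed (called Italian Simmental in the study's methods) from 1 herd, clinically healthy, of several parities and without an experimental treatment, each with 1 blood sample from the tail vein. Milk cortisol ranked the herd, and cows of the upper tail form the high group (replicates 1 to 7) and cows of the lower tail the low group (replicates 8 to 13). The groups are thus tails of a distribution in 1 herd, and single milk cortisol values were not used here. RNA was preserved in PAXgene tubes and sequenced on an Illumina platform with globin transcripts left in. Between 11045599 and 28124575 reads per cow were counted on named genes. Defining transcripts of blood cells were present in all 13 cows, with *CSF3R* of neutrophils at 2107 to 6098 CPM (the usual per-library scaling of counts, here on named genes and with TMM factors), *CD3E* of T cells at 764 to 1722 CPM and *CD79A* of B cells at 469 to 1172 CPM, while *ALB* of liver had at most 0.360 CPM.

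*IL23A* encodes the p19 chain of interleukin-23, a cytokine of myeloid cells that becomes functional when p19 pairs with the p40 chain encoded by *IL12B*, and that maintains T cells producing interleukin-17. *STAT2* encodes a signalling protein of the type I interferon receptor. After phosphorylation it works with IRF9 in the complex ISGF3, which enters the nucleus and switches on interferon-stimulated genes, the *STAT2* gene itself among them.

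The count tables place both genes on chromosome 5 of UMD3.1, end to end on opposite strands. *STAT2* lies on the forward strand from 57318819 to 57333404, with 24 exons of 3611 bases in total, and *IL23A* lies on the reverse strand from 57333496 to 57335062, with 4 exons of 593 bases in total. The last exon of *STAT2*, 1084 bases long, and the last exon of *IL23A* face each other across 91 bases, so transcription of both genes runs toward the same short gap. In the later RefSeq gene table (ARS-UCD2.0) the same genes, with identifiers 511022 (*IL23A*) and 511023 (*STAT2*), are also neighbours, and there their spans overlap. The authors counted reads on exons with no option for strand in the command. A read from a *STAT2* transcript extending past its annotated end into the *IL23A* exons and a read of *IL23A* itself therefore cannot be told apart, and *IL23A* values below are reads on the *IL23A* exons of either strand.

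**Figure D1:**
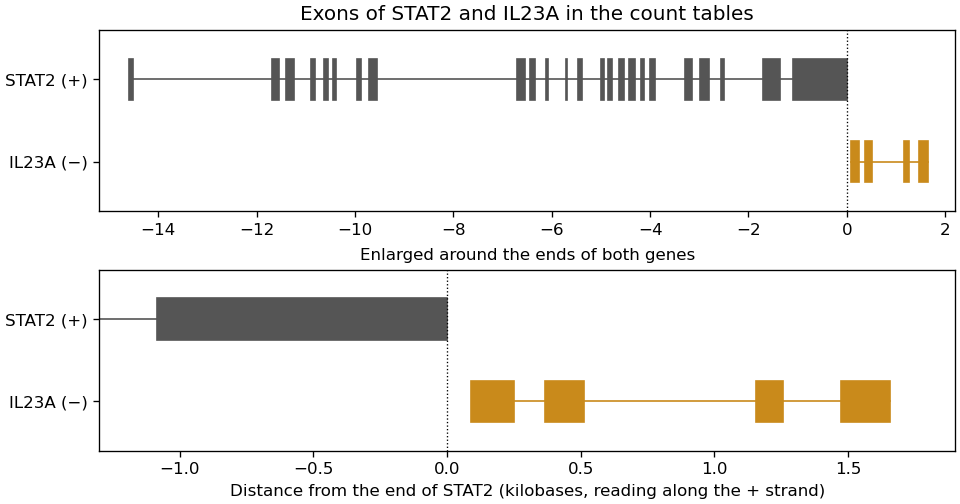
Exons of *STAT2* (forward strand, 24 exons) and *IL23A* (reverse strand, 4 exons) as boxes joined by lines, with the distance from the end of *STAT2* in kilobases on the horizontal axis and the lower panel enlarged. The last exons of both genes face each other with 91 bases between them.

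Reads on *IL23A* were well above the counting floor in every cow. In the high group *IL23A* had 372 to 1013 counts, and its level was lowest at 24.2 CPM, had a median of 34.9 CPM and was highest at 43.8 CPM. In the low group it had 445 to 1523 counts, from 33.4 CPM through a median of 42.5 CPM to 63.5 CPM. The groups overlapped, and 3 cows of the low group, replicates 8, 10 and 12, stood above every cow of the high group. Replicate 4 of the high group was lowest.

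*STAT2*, with the longer exons, had more raw reads, with 2083 to 7610 counts in the high group and 2979 to 12800 in the low group. Its level in the high group ran from 133 CPM through a median of 242 CPM to 329 CPM. In the low group it ran from 224 CPM through a median of 283 CPM to 490 CPM. Only replicates 8 and 10 of the low group exceeded the whole high group, at 490 and 471 CPM. The 2 cows with the most *STAT2* were also the 2 with the most *IL23A*, and replicate 4 of the high group was last of 13 for both genes.

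**Figure D2:**
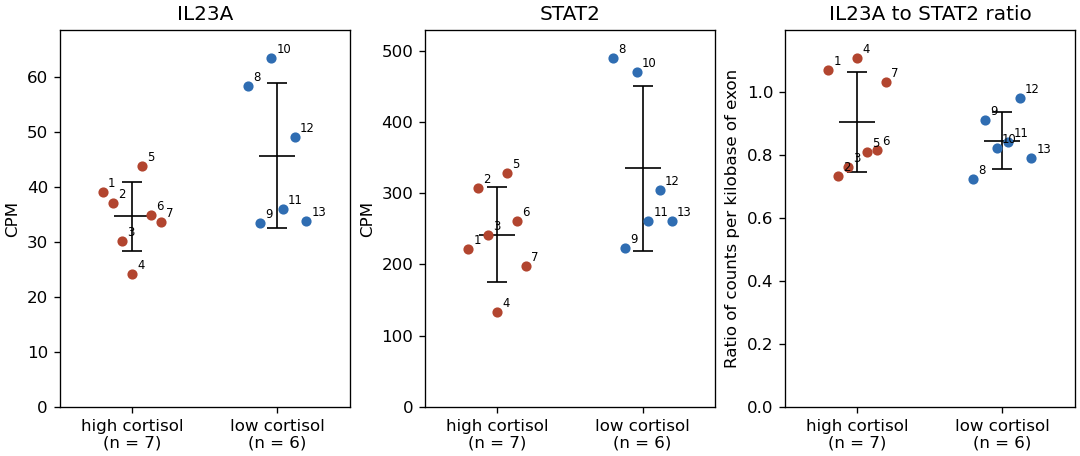
Levels of *IL23A* and *STAT2* in CPM and the ratio of their counts per kilobase of exon, for the 7 cows of the high group and the 6 cows of the low group. Points are cows with their replicate number and bars are mean ± SD, and the groups overlap in all 3 panels.

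Both genes were lower in the high group on average, by differences of about the same size. Mean *IL23A* was 34.7 CPM ± 6.31 (SD, n = 7) among high cows and 45.7 CPM ± 13.2 (SD, n = 6) among low cows, and the log2 fold change of high against low from edgeR was -0.40 (standard error 0.17). Mean *STAT2* was 242 CPM ± 66.4 (SD, n = 7) and 335 CPM ± 116 (SD, n = 6), and its log2 fold change was -0.47 (standard error 0.22). No test is given for these 2 differences, since the pair was chosen on the same contrast. Over all genes tested, edgeR's quasi-likelihood test called 0 of 11033 (0%) at an adjusted p of 0.05, while the unadjusted p of 231 (2.09%) was below 0.05, and DESeq2 called 1. The study selected more cows per group than used here, and with DESeq2 it did report differentially expressed genes at a corrected p of 0.05. The differences of the pair rest in part on the cows with most reads on it. Leaving out low cow 10 put the log2 fold change of *IL23A* at -0.28, and leaving out low cow 8 put that of *STAT2* at -0.33. With the interferon response score described below as a covariate, they were -0.12 for *IL23A* and -0.11 for *STAT2*. The score of 8 red cell genes also stood apart between the groups, with overlap and without a test, at a median of 0.21 among high cows (lowest -0.52, highest 2.03) and of -0.57 among low cows (highest -0.25), and with the share of haemoglobin counts as a covariate the log2 fold changes were -0.36 for *IL23A* and -0.39 for *STAT2*.

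Per length of annotated exon the levels of *IL23A* and *STAT2* were close. *IL23A* had 40.8 to 107 CPM per kilobase over the 13 cows (median 60.8) and *STAT2* 36.8 to 136 CPM per kilobase (median 72.2). The ratio of *IL23A* to *STAT2* on this scale ran from 0.732 through a median of 0.815 to 1.11 in the high group, and from 0.725 through a median of 0.831 to 0.981 in the low group. Mean log2 ratios were -0.16 ± 0.25 (SD, n = 7) in the high group and -0.25 ± 0.15 (SD, n = 6) in the low group, and their difference of 0.09 was smaller than the spread among cows of a group (pooled SD 0.21). It was 0.034 without high cow 4 and 0.134 without high cow 2.

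The ratio varied from cow to cow. Of all reads on the pair, *IL23A* took 15.4% in replicate 4 of the high group (95% exact binomial interval 14.0% to 16.9%) and 10.6% in replicate 8 of the low group (interval 10.1% to 11.1%). Such intervals cover counting error only. The ratio was above 1 in replicates 1, 4 and 7 of the high group, the 3 cows with the least *STAT2* of all 13, and lowest in replicate 8 of the low group, the cow with the most. *IL23A* thus spanned a narrower range than *STAT2*, 2.62-fold from the lowest to the highest cow against 3.68-fold. The line fitted to log2 CPM had a slope of 0.71 for *IL23A* on *STAT2*, and in CPM the line rose by 0.104 per CPM of *STAT2* from an intercept of 10.2 CPM. A ratio shares *STAT2* with the axis it is plotted on, so its fall with *STAT2* is not a separate result.

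**Figure D3:**
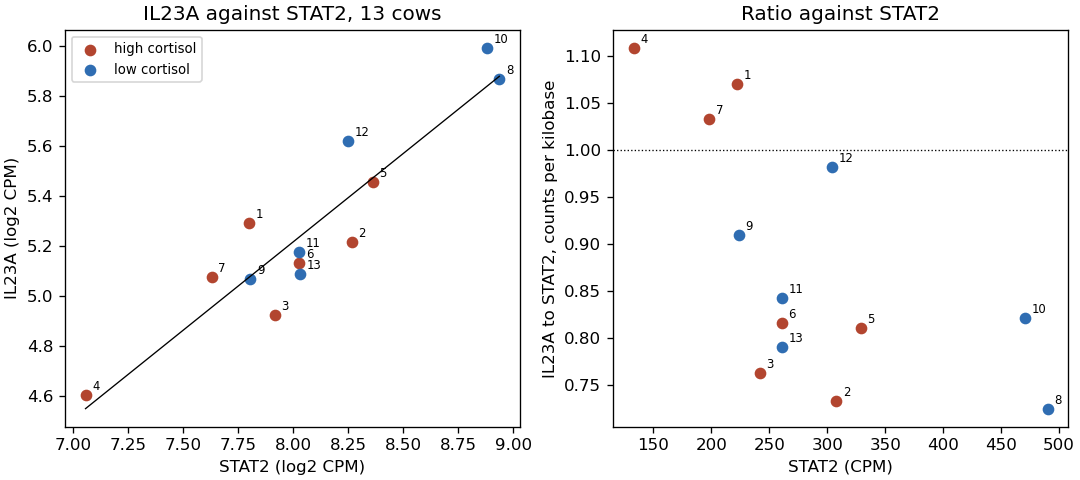
Left, log2 CPM of *IL23A* against log2 CPM of *STAT2* in 13 cows with the fitted line (slope 0.71), and right, the ratio of counts per kilobase against *STAT2* in CPM, with replicate numbers beside the points. Cows of both groups lie along 1 line, and the 3 ratios above 1 belong to the cows with the least *STAT2*.

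The 2 genes varied together across cows. The Pearson correlation of their log2 CPM was 0.920 over the 13 cows (Spearman 0.802), a description of libraries that share depth and scaling. It was 0.847 within the 7 high cows and 0.950 within the 6 low cows, and 0.895 once the group means were removed. Without replicate 4 of the high group and replicate 8 of the low group, the 2 cows farthest from the median of *STAT2*, it was 0.850. Among the 11032 other genes tested, *STAT2* had the highest correlation with *IL23A*, where the median of all genes was -0.010 and 95% lay between -0.675 and 0.684. In the other direction *IL23A* was in place 9 for *STAT2*, where 95% of genes lay between -0.747 and 0.782. The pair was chosen as varying together, so these places are not a separate result.

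The genes most like *IL23A*, with *STAT2* set aside, were *ISG20* (Pearson 0.915 over 13 cows), *TRIM21* (0.908), *UBA7* (0.906), *REC8* (0.895) and *PARP9* (0.886). *ISG20* encodes an interferon-induced exonuclease, *TRIM21* a ubiquitin ligase that recognises antibody inside cells, *UBA7* the activating enzyme of ISG15, *REC8* a cohesin subunit and *PARP9* a member of the ADP-ribosyltransferase family. The genes most like *STAT2*, with *IL23A* set aside, were *ISG20* (0.971), *TMEM140* (0.933), *VAV1* (0.932), *UBA7* (0.929) and *IRF9* (0.929). *VAV1* is a signalling protein of blood cells, and *IRF9* is the DNA-binding partner of *STAT2* in ISGF3. *ISG20* and *UBA7* were thus on both lists. The log2 fold changes of these 8 genes lay between -0.78 (*UBA7*, standard error 0.42) and -0.14 (*VAV1*, standard error 0.12), a direction that follows from choosing genes most like a pair that was itself chosen as lower in the high group.

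The interferon response score of a cow was the mean of centred log2 CPM over 34 interferon-induced genes, without *STAT2* or *IL23A*. It ran from -0.78 to 0.98 in the high group (median -0.48), and from -0.40 to 1.39 in the low group (median 0.32). For *STAT2* the Pearson correlation with the score was 0.840 (two-sided permutation test with 100000 resamples, p = 1e-04, adjusted p = 0.00200 over 20 relations) and Spearman's rho was 0.929 (adjusted p = 6e-04, same test). For *IL23A* the Pearson correlation was 0.832 (permutation p = 5e-04, adjusted p = 0.00500) and Spearman's rho was 0.780 (adjusted p = 0.0254). These p include the group contrast on which the pair was chosen, since the genes of the score were also lower in the high group. With the group means removed and cows permuted within their group, a test added after the data were seen, the Pearson correlations were 0.795 for *STAT2* (permutation p = 0.00311) and 0.784 for *IL23A* (permutation p = 0.00604), and neither passed the adjustment over 20 relations (adjusted p = 0.0604 for both). Without the 2 cows farthest from the median score the Pearson values were 0.798 for *STAT2* and 0.832 for *IL23A*. Within the high group they were 0.732 and 0.717, and within the low group 0.856 and 0.842. Since *IL23A* and *STAT2* were known to vary together, the relation of one with the score is not independent of that of the other. The 34 genes had a median correlation of 0.769 with *IL23A* (0.416 to 0.906) and of 0.786 with *STAT2* (0.349 to 0.929), beside medians of -0.010 and 0.005 over all genes tested. After a linear fit on the score, the residuals of *IL23A* and *STAT2* had a Pearson correlation of 0.735 (Spearman 0.588). That value again describes a pair chosen as varying together and is not a separate result.

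**Figure D4:**
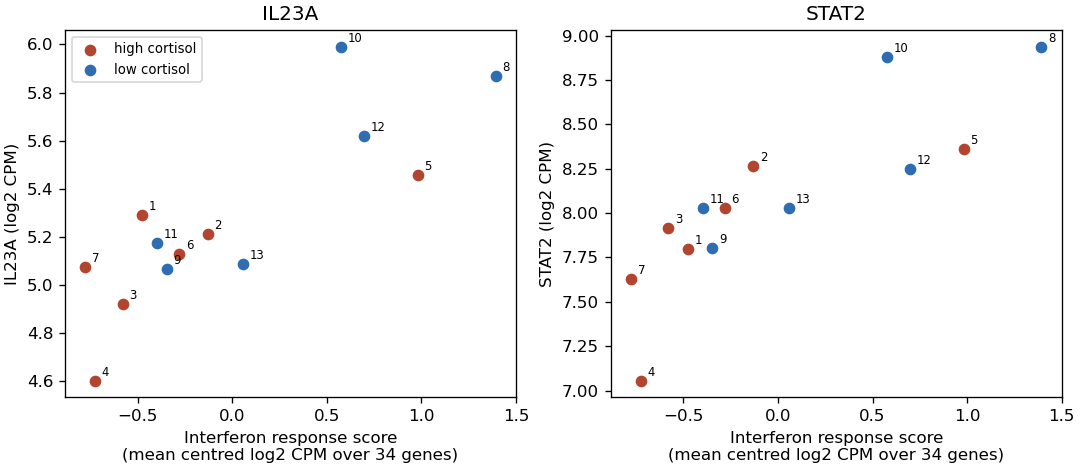
Log2 CPM of *IL23A* (left) and *STAT2* (right) against the interferon response score of each cow, with replicate numbers beside the points and colours for the cortisol groups. Both genes are highest in replicates 8 and 10 of the low group and lowest in replicate 4 of the high group, and Pearson's r is 0.832 for *IL23A* and 0.840 for *STAT2*.

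Scores of 9 blood cell types gave 18 of the 20 relations, and 0 of them passed an adjusted p of 0.05. The nearest was the T cell score (14 genes), with a Pearson correlation of -0.633 with *IL23A* (permutation p = 0.0194, adjusted p = 0.130) and of -0.560 with *STAT2* (permutation p = 0.0462, adjusted p = 0.231). Taken singly, its 14 genes had a median correlation of only -0.083 with *IL23A* and -0.027 with *STAT2*. The monocyte score (10 genes) had -0.318 and -0.151, the dendritic cell score (8 genes) -0.210 and -0.058, and the neutrophil score (10 genes) 0.177 and 0.343. These smaller values depended on single cows, and those of the neutrophil score also on the group. Within the high group the neutrophil score had -0.398 with *IL23A* and 0.022 with *STAT2*, and within the low group 0.777 and 0.801. The cytotoxic and NK score (10 genes) had -0.002 and -0.393 within the high group, and 0.787 and 0.806 within the low group. For the T cell score the values were -0.331 and -0.425 within the high group, and -0.866 and -0.724 within the low group. With 1 cow left out, the monocyte score ranged from -0.547 to -0.137 with *IL23A* and from -0.436 to 0.136 with *STAT2*, the dendritic cell score from -0.436 to -0.017 and from -0.207 to 0.205, and the neutrophil score from 0.039 to 0.314 and from 0.226 to 0.573, while the T cell score ranged from -0.690 to -0.561 and from -0.622 to -0.474. Without the 2 cows farthest from the median of each score, the monocyte score had -0.609 with *IL23A* and -0.575 with *STAT2*. The T cell score then had -0.652 and -0.642, the dendritic cell score -0.094 and 0.088, and the neutrophil score 0.225 and 0.397, all without a test. Monocytes and dendritic cells are the usual blood sources of interleukin-23. In whole blood, fewer cells of a type and less RNA per cell cannot be told apart. The log2 number of counts had a Pearson correlation of 0.307 with *IL23A* (permutation p = 0.310) and 0.338 with *STAT2* (permutation p = 0.263). With *IL23A* it was 0.767 within the high group and 0.115 within the low group, and with *STAT2* 0.389 and 0.363, without a test. The log2 share of counts on haemoglobin genes had -0.361 (permutation p = 0.227) and -0.379 (permutation p = 0.201), and all 4 adjusted p of these relations, added after the data were seen, were 0.310.

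Among the 3 nearest named genes on each side of the pair, 3 had too few counts to be tested and 3 had lower correlations with the members than these had with each other. Lower values beside a pair chosen as varying together are not a separate result. *APOF*, 446 bases before *STAT2* on the same strand, had at most 4 counts in any cow, *MIP* had at most 20, and the microRNA locus bta-mir-2432, beyond *IL23A*, had at most 1. *PAN2*, a poly(A) nuclease gene that starts 3754 bases beyond *IL23A* and is transcribed away from it, had 65.0 to 87.0 CPM. Its Pearson correlation was 0.257 with *IL23A* and 0.063 with *STAT2*, and its log2 fold change was -0.01 (standard error 0.10). *CS*, the citrate synthase gene, had correlations of 0.425 and 0.373, and its log2 fold change was -0.25 (standard error 0.098). *TIMELESS*, on the *STAT2* side, had correlations of 0.614 and 0.611, and -0.19 (standard error 0.15) for the log2 fold change.

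Other neighbouring genes in these tables show what correlation such a layout carries here. Of pairs of neighbouring named genes that run toward each other with a gap of 0 to 500 bases, 217 had both genes tested, and their median Pearson correlation over the 13 cows was 0.479 (quartiles 0.242 and 0.684). *STAT2* and *IL23A*, chosen as a pair known to vary together, were in place 3 of these 217. Pairs of the same orientation had a median of 0.299 at more than 500 and up to 5000 bases (646 pairs) and 0.158 beyond 5000 bases (1132 pairs). For pairs that run away from each other the median was 0.452 with a gap of 0 to 500 bases (308 pairs) and 0.221 beyond 5000 bases. For neighbours on the same strand it was 0.431 (82 pairs) and 0.201 at these distances. The cause of these differences was not tested. Unnamed genes may lie between members of such pairs, and all pairs share the same 13 libraries.

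**Figure D5:**
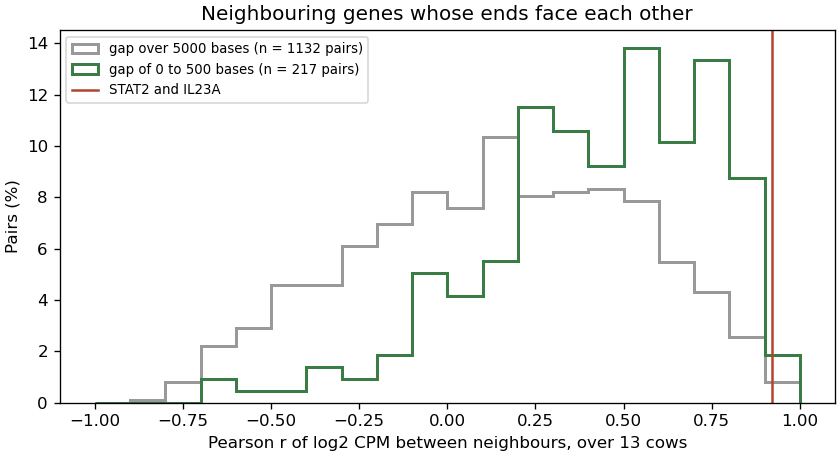
Distribution of Pearson's r of log2 CPM over 13 cows for neighbouring genes that run toward each other, as a percentage of pairs, with a gap of 0 to 500 bases (217 pairs, median 0.479) or over 5000 bases (1132 pairs, median 0.158). The vertical line marks *STAT2* and *IL23A*, a pair chosen as varying together, at 0.920, in place 3 of the 217 close pairs.

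Reads on the genes that interleukin-23 needs besides *IL23A* were few for the p40 chain and for the specific receptor chain. Of 28 listed genes of the interleukin-23 and interleukin-17 axis besides *IL23A*, 24 were found by name and 19 were tested. *IL12B*, the p40 chain that p19 needs, had 0.829 to 3.85 CPM over the 13 cows, with medians of 1.56 CPM in the high group and 2.12 CPM in the low group. Per length its median was 1.83 CPM per kilobase, against 60.8 for *IL23A*, and its correlation with *IL23A* was 0.221. *IL12A*, which encodes the p35 chain of interleukin-12, had at most 2 counts in any cow. *IL27*, a cytokine subunit gene that pairs with *EBI3*, had a correlation of 0.717 with *IL23A* and 0.815 with *STAT2*, at 18.8 to 41.0 CPM in the high group and 27.1 to 36.7 CPM in the low group, while *EBI3* had 0.272 and 0.130. Of the receptor chains, *IL12RB1* had a median of 38.3 CPM per kilobase and *IL23R* one of 0.617 CPM per kilobase. *IL23R*, the chain specific to interleukin-23, stood at a log2 fold change of 0.93 on 4 to 59 counts per cow (standard error 0.46). Its adjusted p from edgeR was 0.999, and its unadjusted p passed 0.05 with DESeq2 and limma-voom but not with edgeR. Among products of interleukin-17-producing T cells, *IL17F* had at most 2 counts and *IL21* at most 4 in any cow, and *IL22* had 0 in all 13, where 3 counts would be at most 0.272 CPM. *IL17A* and *IL26*, also listed, were not found by name, so nothing can be said of their levels. Of the 19 genes, 0 had an unadjusted p below 0.05 with a higher level in the high group (0.934% of all genes tested) and 1 had one with a lower level (1.16% of all genes), and 0 passed an adjusted p of 0.05. The lower one was *IL21R*, the interleukin-21 receptor gene. The median log2 fold change was -0.01, beside 0.01 for all genes tested.

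*IRF9*, the partner of *STAT2* in ISGF3 named above, varied with both members, with correlations of 0.929 with *STAT2* and 0.861 with *IL23A*. *IRF9* ran from 236 to 742 CPM in the high group and from 378 to 854 CPM in the low group. Its fold change on the log2 scale was -0.35 (standard error 0.24). The receptor genes had log2 fold changes of 0.03 for *IFNAR1* (standard error 0.13) and -0.18 for *IFNAR2* (standard error 0.14). Those of the kinase genes were -0.02 for *JAK1* (standard error 0.10) and -0.07 for *TYK2* (standard error 0.09). Correlations of these receptor and kinase genes with *STAT2* and *IL23A* had no common sign. They were -0.320 and -0.335 for *IFNAR1*, 0.368 and 0.228 for *IFNAR2*, -0.157 and -0.260 for *JAK1*, and 0.688 and 0.513 for *TYK2*. Of 25 listed genes of type I interferon signalling besides *STAT2*, 23 were tested and 17 had a negative log2 fold change, with a median of -0.07, beside 5148 of 11033 and a median of 0.01 for all genes tested. By edgeR's test 0 had an unadjusted p below 0.05 with a higher level in the high group (0.934% of all genes) and 1 had one with a lower level (1.16% of all genes), and 0 passed an adjusted p of 0.05. That one was *PIAS1*, which encodes an inhibitor of STAT proteins, whose log2 fold change was -0.23 (standard error 0.11) and whose correlations were 0.809 with *STAT2* and 0.676 with *IL23A*. All 34 genes of the interferon response score had a negative log2 fold change (median -0.58), 5 of them with an unadjusted p below 0.05 (1.16% of all genes in this direction), and 0 passed an adjusted p of 0.05.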

How the data were processed

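Gene counts of blood RNA from 13 cows were used (7 high, 6 low), with groups taken from the sample labels. The authors deposited counts per gene name, whole numbers without normalization, and per the file headers they were made with featureCounts 1.4.6-p3 on exons of Ensembl release 88 for UMD3.1, with no option for strand or for reads touching several genes. The labels and the study's methods name STAR 2.7.3, Subread 1.6.5 and ARS-UCD1.2 instead, and the headers name alignments by animal numbers other than those of the tables. The entry without a gene name (13.9% to 16.7% of counts) was left out.

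From these counts, levels were expressed as TMM-scaled CPM or log2 CPM with a prior count of 2. The group contrast used the robust quasi-likelihood fit of edgeR 4.0.16 (R 4.3.3) on genes kept by filterByExpr (at least 10 counts, 15 in total), with p adjusted by Benjamini-Hochberg. A standard error was obtained from the log2 fold change and its F statistic, as their quotient after taking the root of F. Alternatives were RLE factors, DESeq2 1.42.0, limma-voom (limma 3.58.1), no filter beyond 1 count, the log2 share of 4 haemoglobin genes or the interferon response score as covariate, a prior count of 0.5, library totals only, a gap limit of 200 bases, removal of group means, and each cow left out. Tests were tried on simulated counts first. A list's score is the mean of centred log2 CPM over its tested genes. Relations with 10 scores had permutation p adjusted over 20 relations, and were repeated with group means removed and cows permuted within groups. Neighbours are consecutive named genes by start. Named genes are the pair, members of both pathway lists, the 5 genes most correlated with each member and the 3 nearest on each side, and some list members are not reported here. The pair and the lists were chosen with earlier results of these data known. Each cow is 1 sample, 0 pairs of libraries were identical, and a count of 0 allows up to 3 counts or 0.107 to 0.272 CPM (counting error only).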

Additional observations from a re-analysis of the deposited data

Results flagged for a closer look

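Dixon's test at the 95% level was applied to both extremes of each group for *IL23A*, *STAT2*, their ratio and the interferon response score, and 1 of these 16 gaps exceeded its limit. Chance alone gives such a gap in about 1 of 20 groups. Replicate 5 of the high group had an interferon response score of 0.982, and its gap to the next high cow was 0.632 of the range of the group. This cow also had the most *IL23A* and the most *STAT2* of the high group, at 43.8 and 329 CPM. Without it the correlation of *IL23A* and *STAT2* was 0.918, and the correlations with the score were 0.860 for *IL23A* and 0.859 for *STAT2*.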

How the results depend on the processing

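With 13 cows, 1 blood sample each and no strand in the counts, the group difference of the pair and the source of reads on *IL23A* exons are limited. The log2 fold change of *IL23A* stayed negative under all 19 alternatives and that of *STAT2* too, with 1 cow left out between -0.47 and -0.28 and between -0.56 and -0.33. The correlation of the pair was 0.890 to 0.937 with 1 cow left out and 0.850 without the 2 cows farthest from the median of *STAT2*, a choice made after seeing the data. The pair was in place 2 of 108 with a gap limit of 200 bases and in place 4 of 217 after removal of group means. Correlations with the interferon response score had an adjusted p below 0.05 without each cow in turn, between 0.779 and 0.867 for *IL23A* and between 0.772 and 0.865 for *STAT2*, but not with group means removed and cows permuted within groups, where they were 0.784 and 0.795 (adjusted permutation p = 0.0604 for both), a choice also made after seeing the data.

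DESeq2 called 1 gene, *CYP4X1*, with counts in 2 cows only and named after its values were seen, and every other alternative called 0. Genes at an unadjusted p below 0.05 numbered 348 with DESeq2, 414 without a filter (more genes tested), 120 with the haemoglobin covariate, and 191 to 373 with 1 cow left out, 373 without high cow 2 and 363 without high cow 5. In the interleukin-23 and interleukin-17 list this number was 2 with DESeq2, limma-voom or the haemoglobin covariate and 1 to 2 with 1 cow left out, 2 when high cow 1, 3 or 7 or low cow 8, 9 or 11 was left out. The added gene was higher in the high group each time, *IL23R* with DESeq2 (log2 fold change 0.94), limma-voom (0.99) and without high cow 1 or 3 or low cow 9 or 11, *IL1R1* without high cow 7 or low cow 8, and *IL17RC* with the haemoglobin covariate (0.48). In the type I interferon list it was 0 without a filter and with either covariate, and 0 to 3 with 1 cow left out. Leaving out high cow 1, 3, 4, 6 or 7 or low cow 8, 10 or 11 gave 0, leaving out high cow 2 or low cow 12 gave 2, and leaving out high cow 5 gave 3. The cause was not tested. No paired analysis was possible because the groups are different cows from opposite tails, without pairs in the design.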

Other observations

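Among the 217 close pairs that run toward each other, a pair with another interferon-induced gene stood near *STAT2* and *IL23A*, and it was named after its values were seen. *UBA7* and *FAM212A*, 173 bases apart, had a Pearson correlation of 0.896 over the 13 cows and were in place 5. The pairs above *STAT2* and *IL23A* were *DDX39A* with *ADGRE5* (109 bases apart, 0.952) and *CD302* with *MARCH7* (278 bases apart, 0.938), also named after their values were seen.

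The log2 ratio of *IL23A* to *STAT2* had an SD of 0.209 over the 13 cows, against a median of 0.497 for the ratio of *IL23A* to all other genes tested, and *STAT2* was in place 7 by this measure. The steadiest ratio to *IL23A* was that of *TRIM21* (SD 0.175), and the steadiest ratio to *STAT2* was that of *TMEM140* (SD 0.178).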
